A study of Arabidopsis thaliana with 14 samples.

Results

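The genes described here encode splicing factors and spliceosome proteins of Arabidopsis thaliana. They were 37 genes fixed by their identifiers, 18 for SR proteins and 19 for other factors (SR45, U2AF, U1, U2 and U5 snRNP proteins, PRP40, the polypyrimidine tract-binding proteins PTB, the glycine-rich proteins GRP7 and GRP8, SKIP and CDC5). A circRNA belonged to them where the deposited list names one of these identifiers as its gene. This gave 37 circRNAs from 18 genes, of 5861 circRNAs in the whole list and 4859 on the nuclear chromosomes, and 19 of the genes had none. All plants were wild type Columbia (Col-0). Of the 14 libraries, 13 were separate samples, each from pooled plants and each the only one of its kind: plants at growth stages 1.14, 3.90, 6.50 and 8.00, the organs roots, stems, leaves, flowers and siliques, and the aerial part at stage 3.90 under drought (300 mM mannitol), salt (200 mM NaCl), heat (38 °C) or no stress. The other was 1 mixed sample that pooled RNA of 7 growth stages. All RNA was depleted of ribosomal RNA and treated with Ribonuclease R, which digests linear RNA.

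The list covers all libraries together and gives 1 whole number per circRNA, which its column heading calls a mean read count. This value is called the listed reads below and is at least 2 everywhere. No value for a single separate library was used here, so no condition was compared with another, and in such bulk samples fewer cells of a type and less RNA per cell could not have been told apart. Only the mixed sample had counts of its own, 8987 back-spliced reads over 1217 circRNAs. For all 1217 of them the listed value equals that count, and how the value was made for the others is not given in the sources used here. Listed reads of circRNAs in the mixed sample (17 of the 18 of GRP7 and 2 of the 12 of SR genes) and of those outside it may therefore not be on the same scale. With no replicates there are no p-values, and the 95% intervals given cover counting error only. They treat circRNAs as independent, which the overlapping circles of GRP7 are not. Intervals for GRP7 and for non-SR circRNAs that include it are therefore likely too narrow.

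The spliceosome removes introns from pre-mRNA. U1 snRNP recognises the 5' splice site, U2AF and U2 snRNP the 3' splice site and the branch point, and U5 snRNP holds the exons for joining, while SR proteins bind exons through RNA recognition motifs and recruit this machinery through domains rich in arginine and serine. A circRNA forms when the same machinery joins the end of an exon to the start of the same or an upstream exon, called back-splicing. Plant SR genes are known for extensive alternative splicing of their own transcripts.

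The junctions of the circRNAs with the most reads are shown first, because the junction is what the back-spliced reads support. Each line runs 5' to 3' on the listed strand of the TAIR10 sequence (RefSeq copy), with the 3' end of the circle to the left and its 5' end to the right. Capitals mark the 3 bases on either side of the join. The RS31 join is shown with fewer bases because 1 side of it lies in a 3' untranslated region.
RS40, Ath_circ_FC2808, chr4:13026572-13027129, plus strand: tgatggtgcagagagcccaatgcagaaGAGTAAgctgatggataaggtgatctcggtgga
RS31, Ath_circ_FC2470, chr3:22900266-22901255, minus strand: gagtttttcgaaAGGGATatgcttttgtgt
RSZ22, Ath_circ_FC2905, chr4:15307438-15307904, plus strand: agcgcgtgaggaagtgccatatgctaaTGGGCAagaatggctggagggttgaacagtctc
U2AF35b, Ath_circ_FC3650, chr5:17170600-17170901, minus strand: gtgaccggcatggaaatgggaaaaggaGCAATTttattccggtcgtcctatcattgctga
GRP7, Ath_circ_FC1294, chr2:9265530-9265806, minus strand: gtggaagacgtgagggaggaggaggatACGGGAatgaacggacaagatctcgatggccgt

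At least 1 circRNA was listed for 18 of the 37 genes, or 48.6% (Wilson 95% interval 33.4 to 64.1). The same held for 11.7% of 27444 nuclear protein-coding genes. The genes with at least 3 exons in their longest transcript were also counted. Of 31 such splicing genes 15 had a circRNA, against 17.1% of 16980 such nuclear protein-coding genes. With at least 5 listed reads required, 9 of the 37 genes remained, or 24.3%, against 6.75% of all nuclear protein-coding genes. A wider set of 140 other genes, whose annotation text names splicing, the spliceosome or a related protein family, had circRNAs at 25 genes, or 17.9% (12.4 to 25.0). These genes were found by words alone, so some may not act in splicing, and they were not matched for exon number. The share was thus higher in the 37 genes than in that wider set and than in all genes. The 37 genes were chosen by name with earlier results known, so these shares are descriptions with no test.

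Of the 18 SR genes, 10 had a circRNA, or 55.6% (33.7 to 75.4), and of the 19 non-SR genes 8, or 42.1% (23.1 to 63.7). These intervals overlap widely. The SR genes had 12 circRNAs with 148 listed reads, 0.667 per gene with a highest of 2. The non-SR genes had 25 circRNAs with 99 listed reads, 1.32 per gene, but 18 of the 25 came from GRP7 alone. Without GRP7 the non-SR genes had 7 circRNAs from 7 genes, or 0.389 per gene. The order of the 2 classes in circRNAs per gene thus rests on 1 gene.

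**Figure D1:**
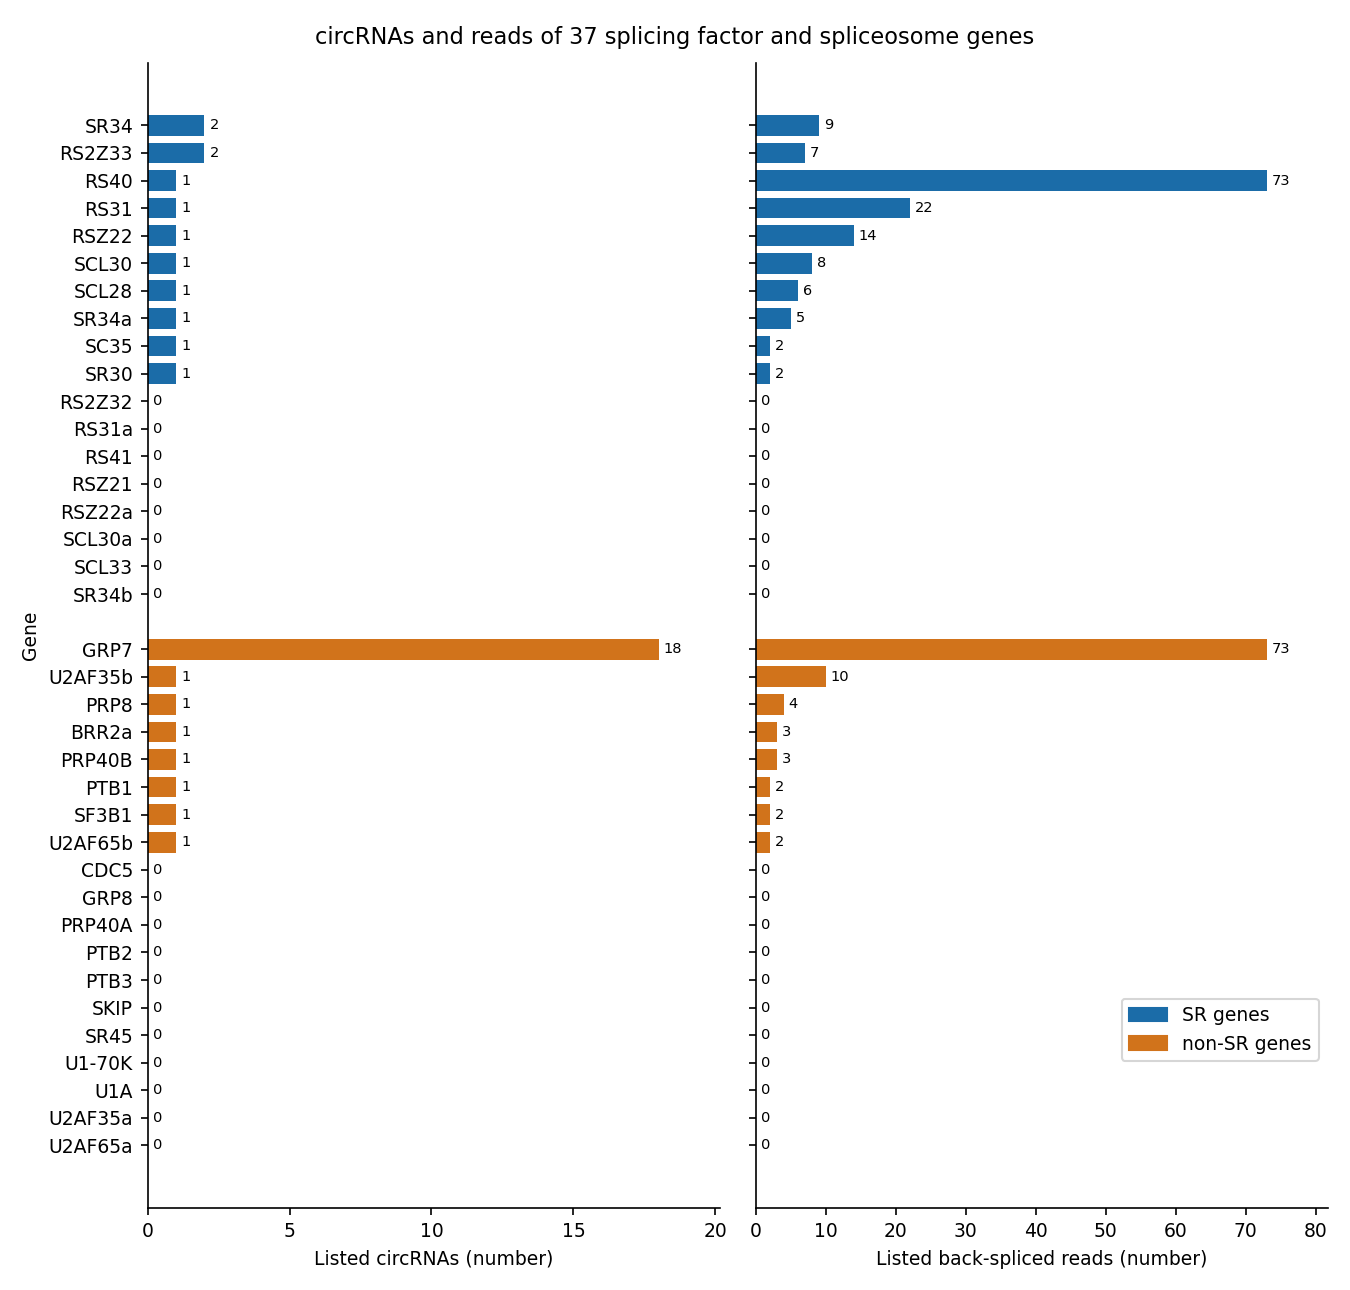
Listed circRNAs (left) and listed back-spliced reads (right) of each of the 37 genes, as bars from 0 with the value beside each bar, SR genes above and non-SR genes below. RS40 has 73 listed reads in 1 circRNA, and GRP7 73 in 18 circRNAs, 17 of them with the count of the mixed sample.

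All 37 circRNAs were listed as exonic, as were 95.5% of all nuclear circRNAs with a gene of the reference. The SR circRNAs had a median of 5.5 listed reads (range 2 to 73), against 3 (2 to 10) for the non-SR circRNAs and 5 (2 to 413) for all 4612 nuclear circRNAs with a gene of the reference. The median genomic span was 763 bp (139 to 2075) for SR genes, against 168 bp (108 to 4154) for non-SR genes, 332 bp for non-SR genes without GRP7 and 465 bp for all nuclear circRNAs. SR circRNAs thus had the longer median span, but the range without GRP7 (184 to 1804 bp) lay within that of SR genes. Most of the short ones belonged to GRP7. Spans include introns. The median of exonic bases was 463 for SR genes, 168 for non-SR genes and 332 without GRP7. Of the 25 non-SR circRNAs, 18 were in the mixed sample, where nuclear spans were shorter (median 178 bp, against 547 bp outside it).

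**Figure D2:**
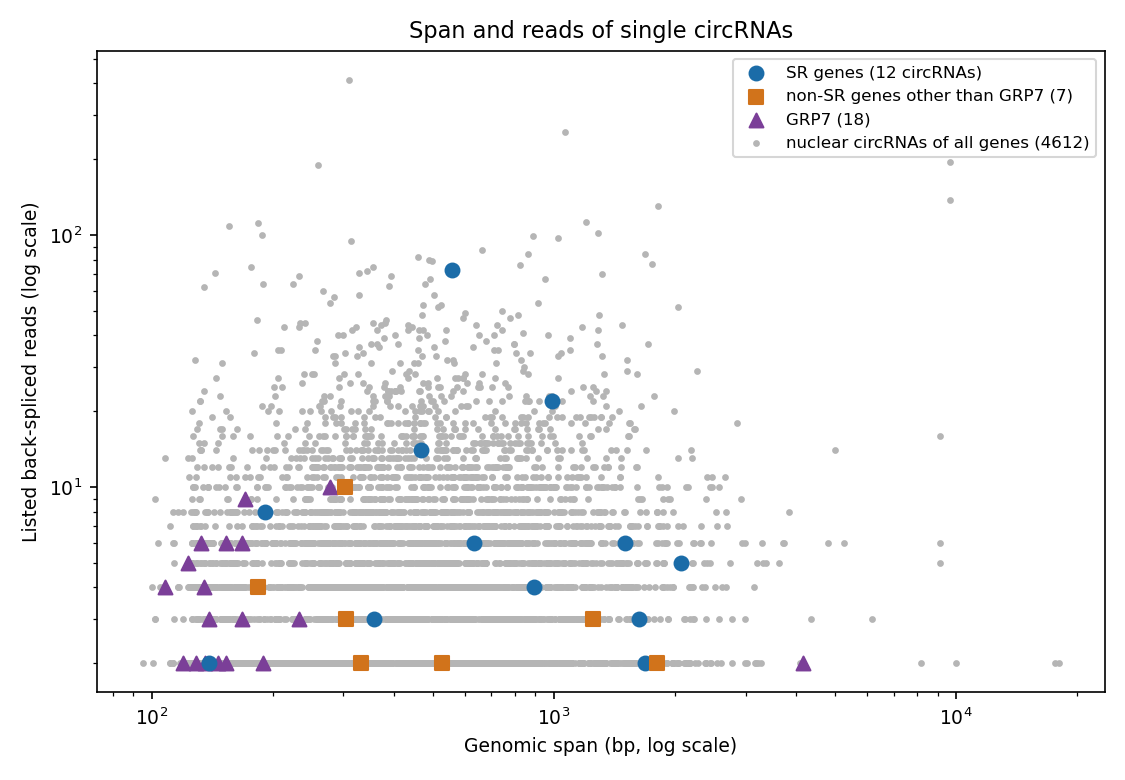
Genomic span in bp against listed back-spliced reads, both on log scales, for 12 circRNAs of SR genes (circles), 7 of non-SR genes other than GRP7 (squares), 18 of GRP7 (triangles) and 4612 nuclear circRNAs of all genes (grey dots). Most GRP7 circRNAs sit at the left edge below 200 bp, and 1 of them stands apart at 4154 bp.

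Both ends lay exactly on annotated exon boundaries in 6 of 12 SR circRNAs, or 50% (25.4 to 74.6), and in 4 of 25 non-SR circRNAs, or 16.0% (6.40 to 34.7). Over all 4418 nuclear circRNAs listed as exonic the share was 65.7%. The GRP7 circRNA among the 4, Ath_circ_FC5612, has its ends on exons of different genes. Without GRP7, 3 of 7 non-SR circRNAs had both ends on boundaries, or 42.9% (15.8 to 75.0). A tolerance of 2 or 5 bp added none in either class. Another 4 SR (33.3%) and 5 non-SR circRNAs (20%) had 1 end on a boundary, and all 5 of the latter were from GRP7. The share over all 4612 nuclear circRNAs with a gene was 7.70%. All 37 had AG just before the 5' end and GT just after the 3' end, as all 4859 nuclear circRNAs did, but find_circ, the program that called them, keeps only junctions with these bases.

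**Figure D3:**
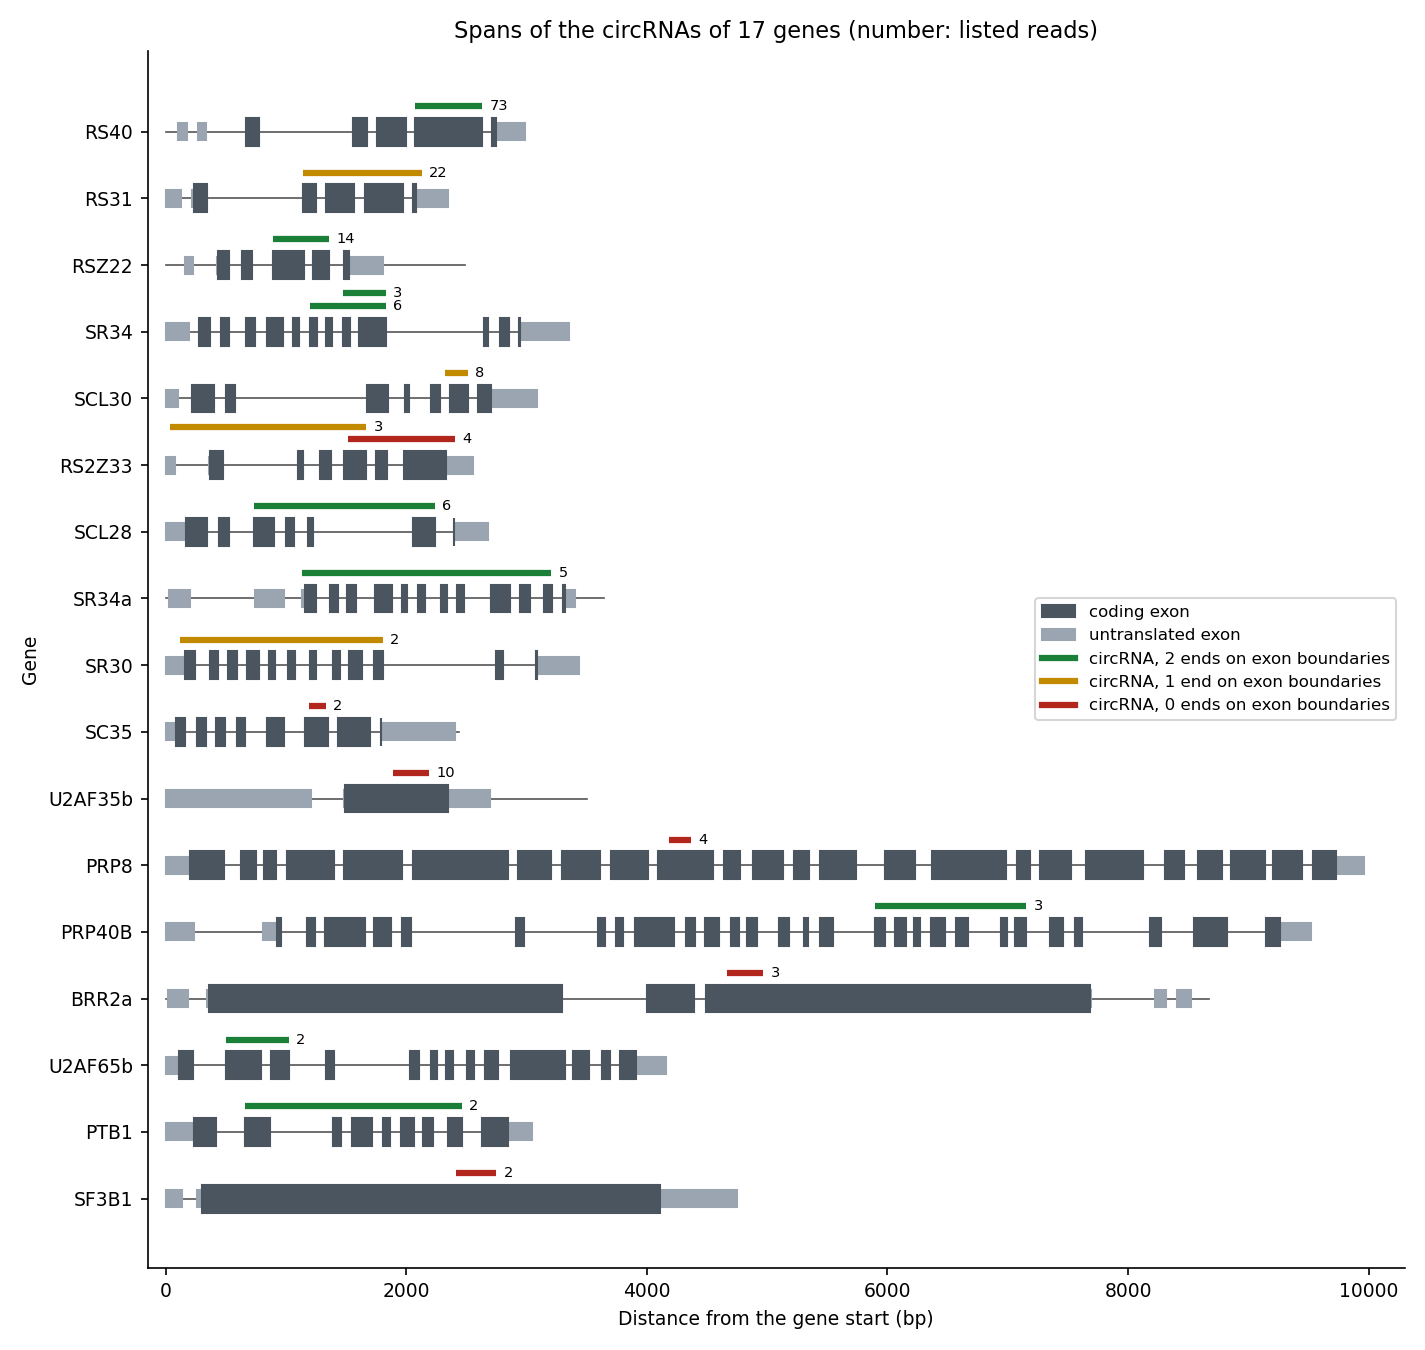
Exon models of the 17 genes with circRNAs other than GRP7, by distance from the gene start in bp, with the span of each circRNA as a coloured line above its gene and its listed reads beside it. Green lines (2 ends on exon boundaries) start and stop with exon boxes. Among the red lines (0 ends), those of U2AF35b, PRP8, BRR2a, SF3B1 and SC35 lie inside single exons. The red line of RS2Z33 runs from exon 5 to exon 7.

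The RS subfamily, plant-specific SR proteins, had the circRNA with the most reads. RS40 (AT4G25500) had 1 circRNA, Ath_circ_FC2808, with 73 listed reads. It consisted of the whole of exon 6 of 7, which with 558 bp is the longest exon of that transcript and is coding throughout, from coding base 462 to 1019 of 1053. The introns beside it were short, 73 bp upstream and 80 bp downstream, against nuclear medians of 119 and 112 bp for circles with both ends on boundaries. The length of 558 bp is a multiple of 3, as were the spans of 4 of 12 SR circRNAs and 35.6% of nuclear ones with a gene. Those spans include introns where a circle crosses them, while the RS40 circle crosses none. RS31 (AT3G61860) had 1 circRNA, Ath_circ_FC2470, with 22 listed reads. Its 5' end was the start of exon 3, directly after the gene's longest intron of 798 bp. Its 3' end lay inside the last exon, exon 6, beyond the stop codon, so that this circle held the stop codon and 734 exonic bases. The remaining RS genes, RS31a (AT2G46610) and RS41 (AT5G52040), had no circRNA.

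The SR subfamily, related to human SRSF1, had circRNAs at 3 of 4 genes. SR34 (AT1G02840) had 2 circRNAs that shared their 3' end. Ath_circ_FC0148 ran over exons 7 to 10 with 389 exonic bases and 6 listed reads, and Ath_circ_FC0149 over exons 9 and 10 with 281 bases and 3 listed reads. The shared 3' end was that of exon 10, directly before the longest intron of 818 bp. SR30 (AT1G09140), its paralogue, had Ath_circ_FC0265 with 2 listed reads, whose 3' end was also that of exon 10, before its longest intron of 942 bp. The 5' end of the SR30 circle lay inside exon 1, upstream of the start codon. SR30 and SR34 were the only 1 of 12 fixed pairs of related genes in which both had a circRNA.

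The 3 junctions of this pair are given together because each of these circles ends with exon 10 of its gene. Capitals again mark 3 bases on either side of the join, and the SR30 join is shown shorter for its 5' untranslated side.
SR34, Ath_circ_FC0148, chr1:627835-628469, plus strand: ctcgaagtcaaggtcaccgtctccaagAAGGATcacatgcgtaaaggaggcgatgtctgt
SR34, Ath_circ_FC0149, chr1:628112-628469, plus strand: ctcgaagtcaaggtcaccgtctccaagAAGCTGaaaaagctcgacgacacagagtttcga
SR30, Ath_circ_FC0265, chr1:2944169-2945856, minus strand: cagctctgtctcAAGATTtttacaggaact
The left sides of the 2 SR34 lines are the same, and only the right sides differ, with exon 7 in the first and exon 9 in the second. SR34a (AT3G49430) had Ath_circ_FC2313 with 5 listed reads, the longest SR circRNA at 2075 bp, over exons 3 to 13 of 14 and with the start codon inside. SR34b (AT4G02430) had none.

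Among the SC35-like proteins, SCL28 (AT5G18810) had Ath_circ_FC3380 with 6 listed reads over exons 3 to 6 of 7, 450 exonic bases in a span of 1507 bp. SCL30 (AT3G55460) had Ath_circ_FC4953 with 8 listed reads, all in the mixed sample. Its 3' end was that of exon 7, but its 5' end lay inside intron 6, and it was the only circRNA of the 37 with an end in an intron of the transcript used. SCL30a (AT3G13570) and SCL33 (AT1G55310) had none. SC35 (AT5G64200), related to human SRSF2, had Ath_circ_FC5813, a stretch of 139 bp inside exon 6 with 2 listed reads, both from the mixed sample.

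Of the SR proteins with zinc knuckles, RSZ22 (AT4G31580) had Ath_circ_FC2905 with 14 listed reads over exons 4 and 5 of 6, 388 coding bases. RSZ21 (AT1G23860) and RSZ22a (AT2G24590) had none. RS2Z33 (AT2G37340), with a pair of such knuckles, had 2 circRNAs that overlapped in exon 5. Ath_circ_FC1541 with 3 listed reads ran from inside exon 1, upstream of the start codon, to the end of exon 5. Ath_circ_FC1540 with 4 listed reads ran from inside exon 5 to inside the last exon, exon 7, past the stop codon. RS2Z32 (AT3G53500) had none. In all, 3 of the 12 SR circles held a start codon, 2 held a stop codon, and 6 had both ends in exons and only coding sequence in their exonic part.

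The non-SR genes other than GRP7 had 1 circRNA each where they had any. For 3' splice site recognition, U2AF35b (AT5G42820), the small subunit that contacts the AG, had Ath_circ_FC3650 with 10 listed reads. It lay inside the single coding exon of the gene, 302 bp from coding base 396 to 697 of 852, with no end on an exon boundary. U2AF65b (AT1G60900), the large subunit, had Ath_circ_FC0835 with 2 listed reads over exons 2 and 3, 443 exonic bases. U2AF35a (AT1G27650) and U2AF65a (AT4G36690) had none. SF3B1 (AT5G64270), the U2 snRNP protein at the branch point, had Ath_circ_FC3939 with 2 listed reads, 332 bp inside its coding exon of 4491 bp.

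At U5 snRNP, both genes had 1. BRR2a (AT1G20960), the RNA helicase, had Ath_circ_FC0461 with 3 listed reads, 305 bp inside an exon of 3198 bp. PRP8 (AT1G80070), the central scaffold protein, had Ath_circ_FC5251 with 4 reads, all in the mixed sample. It spanned 184 bp inside exon 10 of 24 and was listed on the minus strand, while the gene is on the plus strand. Its junction is printed on the listed strand, opposite to the gene.
PRP8, Ath_circ_FC5251, chr1:30122033-30122216, minus strand: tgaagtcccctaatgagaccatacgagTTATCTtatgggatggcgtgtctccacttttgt
Only this circRNA and 1 of GRP7 were listed opposite to their gene, 2 of 37 or 5.41% (1.5 to 17.7), against 13.3% of the 4612 nuclear circRNAs with a gene of the reference.

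PRP40B (AT3G19670), a U1-associated protein, had Ath_circ_FC2078 with 3 listed reads over exons 18 to 24 of 29, 585 coding bases. PTB1 (AT3G01150), which binds polypyrimidine tracts, had Ath_circ_FC1745 with 2 listed reads over exons 2 to 8 of 9, 801 coding bases. No circRNA was listed for PRP40A (AT1G44910), PTB2 (AT5G53180), PTB3 (AT1G43190), the U1 snRNP proteins U1-70K (AT3G50670) and U1A (AT2G47580), the SR-like protein SR45 (AT1G16610), or SKIP (AT1G77180) and CDC5 (AT1G09770) of the activated spliceosome. In 10 of the 12 pairs of related genes 1 partner had a circRNA and the other had none, and in the pair of SCL30a and SCL33 neither had. The levels of the linear transcripts were not used here, so a difference between partners is one of the list only.

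The gene structures of SR genes with and without a circRNA overlapped. The median gene length was 2835 bp (2346 to 3646) in the 10 with and 2877 bp (1554 to 3390) in the 8 without. The median of the highest exon number of any transcript was 7.5 (6 to 14) with and 6.5 (6 to 13) without. The median longest intron was 808 bp (190 to 1100) with and 596.5 bp (157 to 900) without, with ranges that overlap. Over all nuclear protein-coding genes the corresponding medians were 3265 bp with a circRNA and 1950.0 bp without, 9 and 3 exons, and 361 and 209 bp.

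GRP7 (AT2G21660; chromosome 2, 9265084 to 9266557, minus strand), a glycine-rich protein under control of the circadian clock that binds RNA, including its own transcript, had 18 circRNAs with 73 listed reads. This was the highest number of any of the 3216 nuclear protein-coding genes with a circRNA. The next gene had 13, and 74.7% of these genes had 1. GRP8 (AT4G39260), its paralogue, had none. The median of the 18 was 3 listed reads, 7 of them had the minimum of 2, and none had more than 10. The number thus came from many circles with few reads.

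Most of the GRP7 circles lay in 1 stretch of the second exon. Of the 18, 12 lay wholly inside the last 70 codons before the stop codon, chr2:9265480-9265689, with 48 of the 73 listed reads. The stretch is rich in glycine codons: 47 of the 70 codons began with GG, against 23 of the 106 codons before them. It is shown on the strand of the gene. Capitals mark the AG directly before a 5' end and the GT directly after a 3' end of these 12 circles.
GRP7 stretch, chr2:9265480-9265689, minus strand: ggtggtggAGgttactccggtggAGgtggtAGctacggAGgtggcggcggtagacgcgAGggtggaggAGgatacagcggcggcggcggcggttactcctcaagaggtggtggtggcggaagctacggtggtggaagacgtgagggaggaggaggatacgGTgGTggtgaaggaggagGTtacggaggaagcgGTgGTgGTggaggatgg
The capitals AG gather toward the start of the line and the capitals GT near its end.

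The 12 circles combined 6 different 5' ends with 6 different 3' ends. The 5' end at position 9265664 was used by 4 circles with 18 reads and is the start of an exon in a second annotated transcript of GRP7. The 5' end at 9265649 was used by 3 circles with 13 reads, and the 3' end at 9265512 by 4 circles with 14 reads. The spans ran from 108 to 189 bp with a median of 149.5 bp, and 10 of the 12 were multiples of 3. The genomic span was a multiple of 3 in 35.6% of all nuclear circRNAs with a gene and 41.8% of those in the mixed sample. Only 34.3% and 70.7% of these lay within 1 exon, and the spans of the others can include introns, unlike those of the 12. The bases at the 2 ends repeated each other, so that the same join could be placed at several neighbouring positions: the ends shared 2 to 9 bases with a median of 5.5, against a median of 2 for all nuclear circRNAs with a gene. Over all 18 GRP7 circRNAs 9, or 50% (29.0 to 71.0), shared 5 bases or more, against 1 of 12 SR circRNAs, 0 of the 7 other non-SR circRNAs and 9.41% of the nuclear ones. The GRP7 circles share ends and are not independent, so this interval is likely too narrow. GRP8 has a stretch of the same kind, with 46 of its last 70 codons beginning with GG.

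A pair of these junctions is given here. The shared bases lie across the ends of a circle, in the stretch shown above, and not on either side of a printed join. Ath_circ_FC4905 had the most reads of the 12 with 9, and Ath_circ_FC5038 with 6 reads shared 9 bases at its ends. Capitals mark 3 bases on either side of the join.
GRP7, Ath_circ_FC4905, chr2:9265494-9265664, minus strand: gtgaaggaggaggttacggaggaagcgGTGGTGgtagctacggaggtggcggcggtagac
GRP7, Ath_circ_FC5038, chr2:9265512-9265679, minus strand: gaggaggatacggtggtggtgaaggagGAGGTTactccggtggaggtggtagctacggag
Junction stretches of 60 bases were also set, without gaps, against the surrounding genome and the gene's annotated transcripts. This looked for a nearby linear RNA that could give the same read. Genes elsewhere, such as GRP8, were not searched, so a match there could not have been seen. The 12 circles differed from the closest linear stretch by 10 to 21 of 60 bases with a median of 13, against a median of 19 for all nuclear circRNAs with a gene and 19 for the SR genes. None of the 37 came within 3 bases of such a linear stretch, and the closest, Ath_circ_FC5612, differed by 4. Only 0.499% of the 4612 nuclear circRNAs with a gene did, so this does not set the 37 apart.

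**Figure D4:**
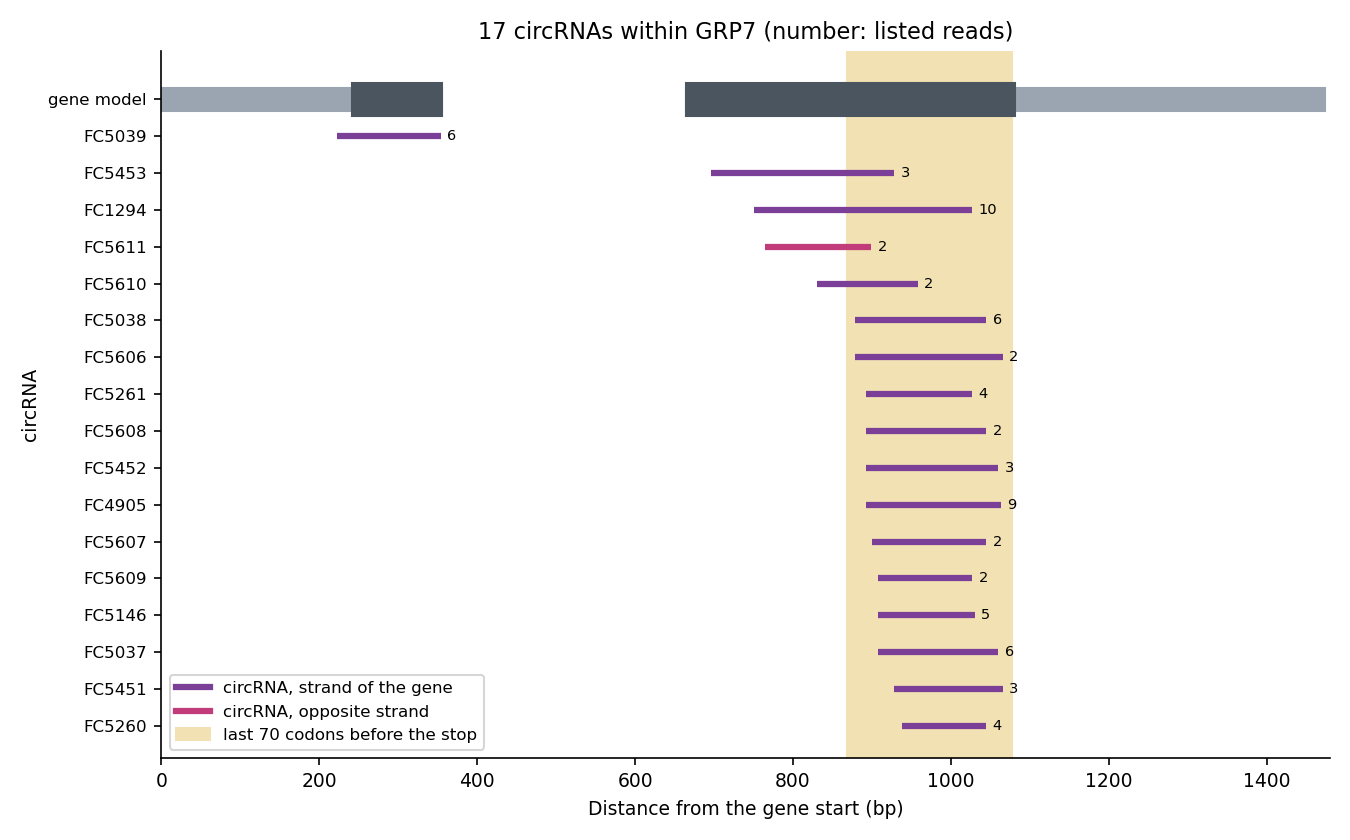
The 17 circRNAs that lie within GRP7, as lines by distance from the gene start in bp, with listed reads beside each line and the gene model on top (dark, coding; light, untranslated). Of the lines, 12 lie wholly inside the shaded last 70 codons, 4 overlap it in part, and 1 lies alone in exon 1.

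Of the other 6 GRP7 circRNAs, 4 overlapped this stretch in part. Ath_circ_FC1294, with 10 listed reads the most of the gene and the only 1 of the 18 outside the mixed sample, ran from coding base 202 to 478, where Ath_circ_FC5261 and Ath_circ_FC5609 also ended. Like it, Ath_circ_FC5610 with 2 reads and Ath_circ_FC5453 with 3 reads had their 3' end in the last 70 codons and began upstream of them. This limit was fixed and is not where the glycine codons begin. Ath_circ_FC5611 with 2 reads overlapped the stretch but was listed on the plus strand, opposite to the gene. Ath_circ_FC5039 with 6 reads spanned 133 bp of exon 1, up to the exon's 3' end and with the start codon inside.

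Ath_circ_FC5612 with 2 reads was the longest circRNA of the 37, at 4154 bp, and left the gene. Its 3' end was the end of exon 1 of GRP7, and its 5' end was the start of an exon of AT2G21690, which lies 3556 bp away on the same strand at 9270114 to 9270597. Both ends were thus exon boundaries, but of different genes. Its junction is printed above the join of exons 1 and 2 in the linear GRP7 transcript, since the pair differs by only 4 of 60 bases.
GRP7, Ath_circ_FC5612, chr2:9266203-9270356, minus strand: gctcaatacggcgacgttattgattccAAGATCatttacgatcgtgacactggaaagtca
GRP7, linear exon 1 to exon 2, chr2:9265864-9266232, minus strand: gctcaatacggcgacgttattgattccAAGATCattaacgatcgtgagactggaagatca
Counted from 1 at the 5' end of the linear sequence, the differences are A37T, G48C, G56A and A57G, all on the side of the second exon. No circRNA was listed for AT2G21690 itself. Whether the 2 reads came from a circle or from linear GRP7 RNA was not tested.

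In the mixed sample, 2 of the 12 SR circRNAs were found, or 16.7% (4.70 to 44.8), and 18 of the 25 non-SR circRNAs, or 72.0% (52.4 to 85.7). Over all 4859 nuclear circRNAs the share was 20.0%. Of the 18, 17 were from GRP7, and without that gene 1 of 7 non-SR circRNAs was found, or 14.3% (2.57 to 51.3). GRP7 gave 63 of the 8987 back-spliced reads of that library, or 0.701% (exact 95% interval 0.539 to 0.896). All 37 genes together gave 77 reads, or 0.857% (0.677 to 1.07), and without GRP7 14 reads, or 0.156% (0.0852 to 0.261). No other nuclear protein-coding gene had more than 9 circRNAs in that library.

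The circRNAs of the mixed sample also differed from the others in general. The 926 nuclear ones with a gene had a median span of 178 bp, against 547 bp in the 3686 found outside it. Both ends lay on exon boundaries in 46.2% of those in the mixed sample and in 67.0% of those outside it, and 70.7% and 25.2% lay within 1 exon. The mixed sample was sequenced on another instrument with shorter reads. The GRP7 circRNAs thus share their short span and single exon with the library in which 17 of the 18 were found, and the part of that library in the GRP7 values was not tested. For the 20 circRNAs in the mixed sample the file also gives a number of miRNAs listed beside each, with a median of 2, as for all 974 nuclear circRNAs in it. The highest of the 20 was 27 at Ath_circ_FC5612, and the next 9 at Ath_circ_FC5813.

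**Figure D5:**
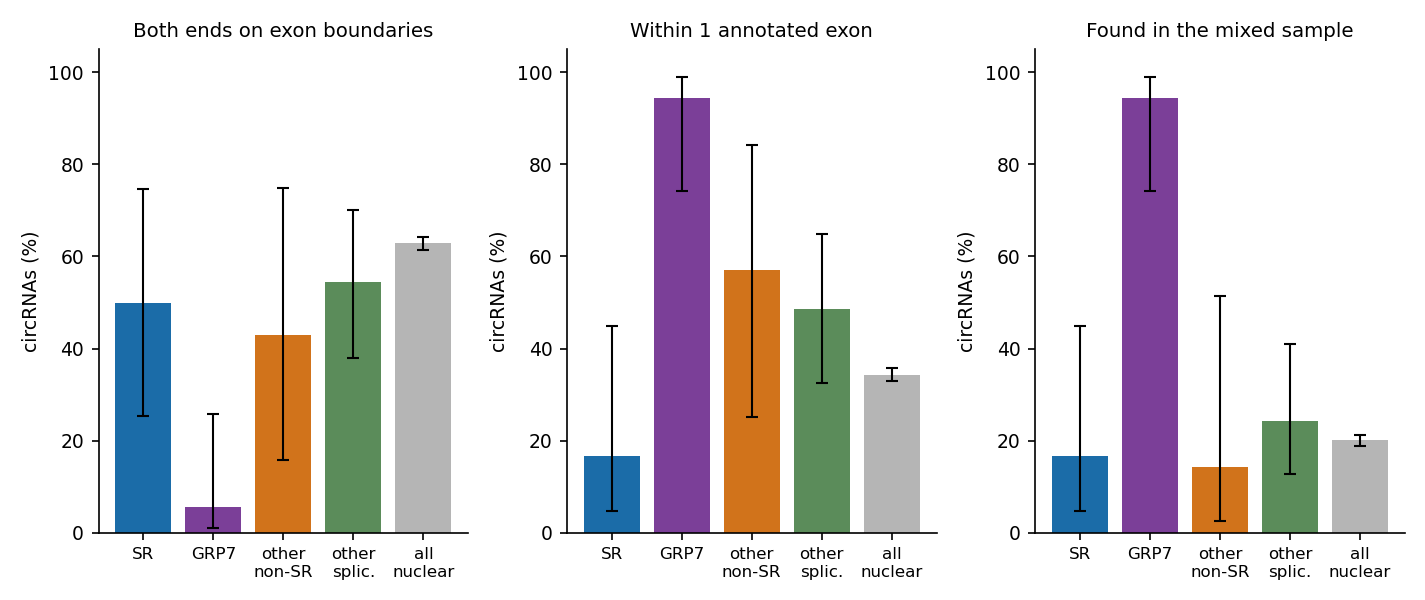
Percent of circRNAs with both ends on exon boundaries (left), within 1 annotated exon (middle) and found in the mixed sample (right), with Wilson 95% intervals as bars. The groups are SR genes, GRP7, the other non-SR genes, 140 other genes found by splicing words in their annotation text, and all nuclear circRNAs with a gene. On the left GRP7 has the lowest share (5.56%), from 1 circRNA whose ends lie on exons of different genes. GRP7 has the highest share in the middle and on the right (94.4% each). Its intervals overlap those of the other non-SR genes on the left and in the middle. The GRP7 circRNAs are not independent, so its intervals are likely too narrow.

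The wider set of 140 other genes, found by words in their annotation text, had 33 circRNAs. Their median was 4 listed reads and their median span 430 bp, and 18 of the 33, or 54.5% (38.0 to 70.2), had both ends on exon boundaries. The most circRNAs of any of these genes was 3, so none came near GRP7.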

How the data were processed

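Per the study's methods, the authors filtered reads from 14 strand-specific libraries, aligned them to TAIR10 with TopHat2 and Bowtie2 2.0.5, and called back-spliced junctions with find_circ at 2 or more unique reads. The deposited list holds 1 whole-number score per circRNA over all samples, headed as a mean of junction reads. The deposited file of the mixed sample holds raw counts per circRNA, not normalized.

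The members and gene lists were chosen with earlier results of these data known. Every member is named. Starts in the list count from 0, so 1 was added. Ends were compared with all transcripts of the RefSeq annotation of TAIR10.1, whose nuclear sequence is that of TAIR10. Exon numbers refer to the transcript that matched the most ends, then the one with the most coding bases. Direct repeats were counted as the bases by which a junction can slide. Junctions of 60 bases were compared, without gaps, with 2000 bp on either side and with the gene's transcripts. For the wider gene set, text on matches to other proteins was removed before the search. Intervals are Wilson or exact binomial at 95%, and no test was run. On simulated circRNAs, 500 of 500 boundaries, 500 of 500 repeats and 500 of 500 linear stretches were recovered. The simulated genome was random sequence without repeats like the GRP7 stretch. This checks the code only and not the calls in GRP7. Python 3.11.15 was used with numpy 2.4.6, pandas 2.3.3, scipy 1.17.1 and matplotlib 3.10.9.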

Additional observations from a re-analysis of the deposited data

How the results depend on the processing

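No paired analysis was possible because each condition had 1 library and no test was made. With at least 5 listed reads, 9 genes and 14 circRNAs remained, 0.389 per SR gene and 0.368 per non-SR gene. The classes were then nearly equal. At this setting 6.75% of nuclear protein-coding genes had a circRNA. With at least 3 reads there were 0.789 circRNAs per non-SR gene. Counting only genes with a circRNA gave 1.20 per SR gene and 3.13 per non-SR gene. The mean of listed reads was 12.3 for SR circRNAs. The circRNA with the most reads of each gene gave a median span of 318.5 bp for non-SR genes, and genes with at least 3 exons a share of 17.1%. Leaving out GRP7, an alternative chosen after seeing the data, gave 19 circRNAs, 0.389 per non-SR gene, a non-SR median span of 332 bp, 42.9% with both ends on exon boundaries and 14.3% in the mixed sample. With at least 3 reads, 13 genes and 25 circRNAs remained, and weighting by listed reads put 72.3% of SR and 9.09% of non-SR reads in circRNAs with both ends on exon boundaries. These and the rest of 25 among 41 alternatives stayed within 1.5 times of a count or median, or within the 95% interval of a share. Overlap with the gene by coordinates added no circRNA, and on the gene's strand it left 17 genes. Values of 2 to 10 reads limit what single circRNAs can show.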
